A study of Mus musculus with 8 samples.

Results

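T cells with 2 productive alpha chains were examined among CD8 T cells of MC38 tumours. MC38 is a colon carcinoma line of the mouse, and the hosts were wild-type C57BL/6 mice. A barcode was called dual-alpha when its TCR library held productive contigs with exactly 2 different alpha CDR3 nucleotide sequences and exactly 1 beta sequence. It was called single-alpha when it held exactly 1 of each. In the matched expression library, both also had to show 500 genes or more, with less than 10% of UMIs (unique molecular identifiers, which count captured RNA molecules) from mitochondria. The rule found 2641 dual-alpha and 17229 single-alpha barcodes among 34278 passing barcodes.

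The study had 4 tumour samples, each with 1 expression and 1 TCR library, in 2 experiments. In experiment 1, mice with palpable tumours received buffer or 10 mg/kg rhIL-7-hyFc, a long-acting fusion of human interleukin-7 to an Fc, under the skin. Tumours were taken on day 7, and CD8 cells were enriched with magnetic beads by positive selection. In experiment 2, mice received 1.25 mg/kg of the same drug alone, or with an intravenous anti-mPD-L1 × anti-CD3ε TCE, begun 3 days after the drug. These tumours were taken 24 hours after the last treatment, and live CD45+ TCRb+ CD8a+ cells were sorted. The labels do not say how many mice a library pools. With a single library for each treatment, no difference between treatments was tested, and experiments were not compared. Within each library dual-alpha and single-alpha cells share the tumour, the sort and the run, so the 4 libraries serve as replicates of that contrast. An exact sign-flip permutation test over 4 libraries cannot give a p below 0.13.

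The αβ T cell receptor pairs an alpha with a beta chain. Beta rearrangement is held to 1 allele in most T cells, whereas the alpha locus rearranges on both chromosomes and in successive rounds that move through the J segments away from the V segments. A mature T cell can therefore carry 2 alpha chains that read in frame, and may show both on its surface. The delta locus lies inside the alpha locus, between its V and J segments, so a V to J alpha join removes it from that chromosome. RNA does not show whether both chains reach the surface.

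The clonotypes that best show the pattern are printed here: the 2 pairs found in most barcodes of each library. CDR3 nucleotides run 5′ to 3′ from the contig tables. Capitals mark bases that match neither the V nor the J germline end on GRCm38, so in the beta chains they include the D segment. The first alpha named is the one with more UMIs over all barcodes of its pair, and single barcodes could differ. Among barcodes with unequal UMIs, it was the stronger chain in 5 of 11 for 10 mg/kg pair 2. For pair 2 of 1.25 mg/kg plus TCE it was the stronger chain in 14 of 32. In pair 1 of the 10 mg/kg library the TRAV13D-2 chain had no germline V match of at least 6 bases, and all bases before its J match are in capitals.
Buffer pair 1, alpha TRAV14-1 TRAJ30: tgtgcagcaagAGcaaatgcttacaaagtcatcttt
Buffer pair 1, alpha TRAV9-4 TRAJ37: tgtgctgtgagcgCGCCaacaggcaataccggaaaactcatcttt
Buffer pair 1, beta TRBV26 TRBJ1-6: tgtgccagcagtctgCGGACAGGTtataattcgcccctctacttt
Buffer pair 2, alpha TRAV7-4 TRAJ37: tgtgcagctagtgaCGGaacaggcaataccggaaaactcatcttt
Buffer pair 2, alpha TRAV6-4 TRAJ23: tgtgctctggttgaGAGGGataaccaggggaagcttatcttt
10 mg/kg pair 1, alpha TRAV13D-2 TRAJ37: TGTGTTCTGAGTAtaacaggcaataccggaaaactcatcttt
10 mg/kg pair 1, alpha TRAV6-2 TRAJ37: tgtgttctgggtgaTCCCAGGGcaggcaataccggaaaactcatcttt
10 mg/kg pair 1, beta TRBV26 TRBJ1-1: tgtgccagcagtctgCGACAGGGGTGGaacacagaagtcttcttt
10 mg/kg pair 2, alpha TRAV12D-2 TRAJ4: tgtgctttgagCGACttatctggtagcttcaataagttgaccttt
10 mg/kg pair 2, alpha TRAV12D-1 TRAJ7: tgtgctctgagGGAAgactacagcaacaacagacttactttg
1.25 mg/kg pair 1, alpha TRAV13D-1 TRAJ22: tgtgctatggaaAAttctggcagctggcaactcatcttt
1.25 mg/kg pair 1, alpha TRAV12-1 TRAJ22: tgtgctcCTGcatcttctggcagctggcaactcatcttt
1.25 mg/kg pair 1, beta TRBV13-1 TRBJ1-4: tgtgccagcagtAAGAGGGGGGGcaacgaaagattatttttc
1.25 mg/kg pair 2, alpha TRAV12D-2 TRAJ21: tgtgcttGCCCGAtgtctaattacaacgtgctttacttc
1.25 mg/kg pair 2, alpha TRAV7-1 TRAJ7: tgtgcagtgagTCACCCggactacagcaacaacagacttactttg
1.25 mg/kg plus TCE pair 1, alpha TRAV13N-1 TRAJ33: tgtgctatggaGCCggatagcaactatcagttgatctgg
1.25 mg/kg plus TCE pair 1, alpha TRAV1 TRAJ26: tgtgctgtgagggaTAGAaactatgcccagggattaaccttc
1.25 mg/kg plus TCE pair 1, beta TRBV20 TRBJ2-1: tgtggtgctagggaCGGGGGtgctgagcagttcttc
1.25 mg/kg plus TCE pair 2, alpha TRAV10 TRAJ32: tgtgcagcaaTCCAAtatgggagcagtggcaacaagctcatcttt
1.25 mg/kg plus TCE pair 2, alpha TRAV6-6 TRAJ22: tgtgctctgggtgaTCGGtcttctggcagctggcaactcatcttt

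All alpha segments lie on chromosome 14 of GRCm38. The 128 Trav genes span chr14:52427928-53977678, the 60 Traj segments chr14:54155005-54218842, and the constant gene Trac chr14:54220521-54224206, all on the plus strand. In 2 of the 8 printed pairs both alphas used the same J segment. These were TRAJ37 in pair 1 of the 10 mg/kg library and TRAJ22 in pair 1 of the 1.25 mg/kg library. Their bases outside the J match differed.

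The printed pairs were chosen as those found whole in the largest numbers of barcodes. That choice favours barcodes with both alphas, so the counts of this paragraph are a description. Pair 1 of the buffer library was found whole in 30 of the 33 barcodes that carried its beta chain, and the other 3 showed only the alpha of more UMIs. Pair 1 of the 10 mg/kg library was found whole in all 15 barcodes of its beta. Pair 1 of the 1.25 mg/kg library was whole in 34 of 38 barcodes, and pair 1 of the combination library in 39 of 42. Pair 2 was whole in 24 of 25 barcodes of the buffer library and 11 of 11 of the 10 mg/kg library. It was whole in 30 of 33 of the 1.25 mg/kg library and 39 of 51 of the combination library. In pair 1 the chain of fewer UMIs had a median of 11 UMIs in buffer, 14 in 10 mg/kg, 8 in 1.25 mg/kg and 7 in combination. In pair 2 these medians were 24, 5, 8 and 5 UMIs, in the same order.

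RNA of the labelled cell type was found in both classes. At least 1 UMI of Cd8a or Cd8b1, the CD8 coreceptor chains, was found in 96.9% to 99.1% of dual-alpha barcodes across libraries, against 97.5% to 98.6% of single-alpha barcodes. Their summed level was 2195, 1991, 1844 and 1903 CPM (counts scaled to the summed UMIs of the class) in dual-alpha barcodes, with libraries in the order buffer, 10 mg/kg, 1.25 mg/kg, combination, as in all lists below. As a background, barcodes with no TCR contig and at least 1% macrophage UMIs had such a UMI in 50%, 23.9%, 57.6% and 67.9%, at 171, 74.97, 1049 and 1157 CPM. Their median depths were 8437, 13286, 9667.5 and 14482.5 UMIs. In experiment 2 this background thus held much CD8 RNA itself, with medians of 5 and 15 UMIs a barcode. Matrices held 5589 to 12560 barcodes and 47308214 to 118191371 UMIs. Macrophage and monocyte markers took at least 0.1% of UMIs in 8.3%, 3.03%, 23.9% and 2.22% of dual-alpha barcodes. The single-alpha values were 9.39%, 1.87%, 20.6% and 3.02%. All 12 macrophage markers were detected among dual-alpha cells of every library, and their summed level ran from 459 to 4472 CPM. Their part in the results below was not tested. Of the 6 γδ T cell markers in the matrix, 3, 4, 4 and 4 were detected in dual-alpha cells. Their summed level was 23.3, 14.8, 13.9 and 20.70 CPM, against 31.2, 17.6, 18.9 and 20.65 CPM in single-alpha cells. Trdc and Sox13 were at 0 in the dual-alpha cells of 3 and 4 libraries respectively. Sox13 was at 0 in the single-alpha cells of the combination library too. Libraries shared 37 to 184 barcodes by pair, which included 2 dual-alpha barcodes.

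Dual-alpha cells were a minority of the cells with 1 beta in each library. Their share of dual-alpha plus single-alpha cells was 11.02% (exact 95% interval 9.85 to 12.3) in the buffer library, 289 of 2622 barcodes. It was 16.9% (15.8 to 18.0) in the 10 mg/kg library, 791 of 4690 barcodes. In experiment 2 it was 13.6% (12.8 to 14.5) with 1.25 mg/kg alone and 11.4% (10.6 to 12.2) with the TCE. Intervals are Clopper-Pearson intervals and cover counting error only. Within each experiment the pair of intervals did not overlap, but they rest on 1 library each.

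When each clonotype was counted once, the experiment 1 libraries came together. The share became 16.2% (14.1 to 18.5) in the buffer library and 16.2% (15.1 to 17.4) in the 10 mg/kg library. In experiment 2 it was 14.01% (12.9 to 15.2) and 13.2% (12.1 to 14.3), which overlap. Among beta chains found in 1 barcode it was 16.3%, 15.9%, 13.4% and 13.1%. The gap between libraries seen over barcodes was not seen over clonotypes.

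**Figure D1:**
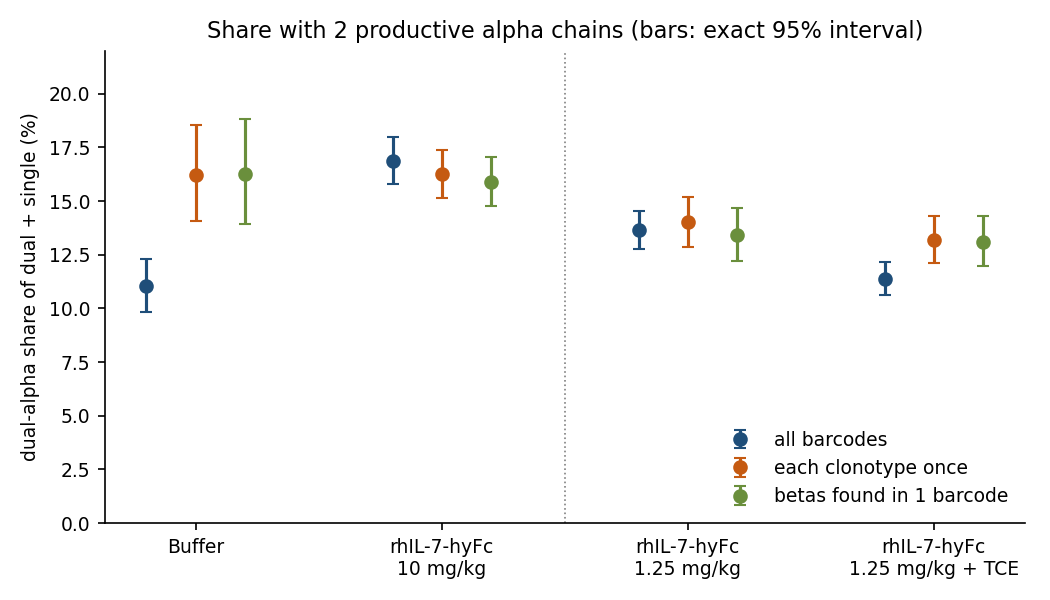
Share of dual-alpha among dual-alpha plus single-alpha cells (y axis, percent) by library, over barcodes, over clonotypes counted once and over betas found in 1 barcode, with exact 95% intervals. The dotted line separates the experiments. The buffer library rises from 11.02% over barcodes to 16.2% over clonotypes, while the 10 mg/kg library stays near 16%.

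The classes were chosen by their number of alpha contigs, so the UMIs of these contigs are given as a description. Alpha contigs of dual-alpha cells held a median of 21, 18, 13 and 14 UMIs, against 11, 8, 6 and 7 in single-alpha cells. The ratio was 1.91 to 2.25. Each alpha alone was near the single-alpha level: the stronger chain had a median of 13, 11, 8 and 8 UMIs and the weaker 7, 7, 5 and 5. The weaker chain was not a trace. Its UMIs were a median of 0.593 to 0.64 of the stronger chain's, and only 1.83% to 4.5% of dual-alpha barcodes had a weaker chain of 1 UMI.

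Beta contigs and total UMIs showed no common direction between the classes. Beta contigs had medians of 19, 20, 14 and 15 UMIs in dual-alpha and 23, 19, 13 and 14 in single-alpha cells. The ratio ranged from 0.826 to 1.08 (exact sign-flip permutation test, two-sided, p = 1). Expression libraries had medians of 9404, 9758, 6545 and 6523.5 UMIs against 9610, 9519, 5887 and 6301. The ratio was 0.979 to 1.11 (exact sign-flip permutation p = 0.25).

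Barcodes with 2 alphas and 2 betas differed from this. They numbered 71, 221, 171 and 179 and lie outside the rule. Their median UMIs were 15094, 17608, 12990 and 10322, which is 1.57 to 2.21 times the single-alpha median and higher in 4 of 4 libraries (exact sign-flip permutation p = 0.13). With barcodes split by UMIs into 5 equal bins, the 2-beta share spread more widely than the dual-alpha share. From the lowest to the highest bin, the dual-alpha share went from 15.0% to 19.6% in the 10 mg/kg library, and the 2-beta share from 5.35% to 22.03%. In the 1.25 mg/kg library these went from 10.54% to 16.6% and from 5.66% to 18.2%. In the combination library they went from 9.29% to 12.9% and from 5.48% to 18.6%. In the buffer library the dual-alpha share was 11.4% in the lowest and 12.02% in the highest bin, and the 2-beta share 4.02% and 10.9%.

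**Figure D2:**
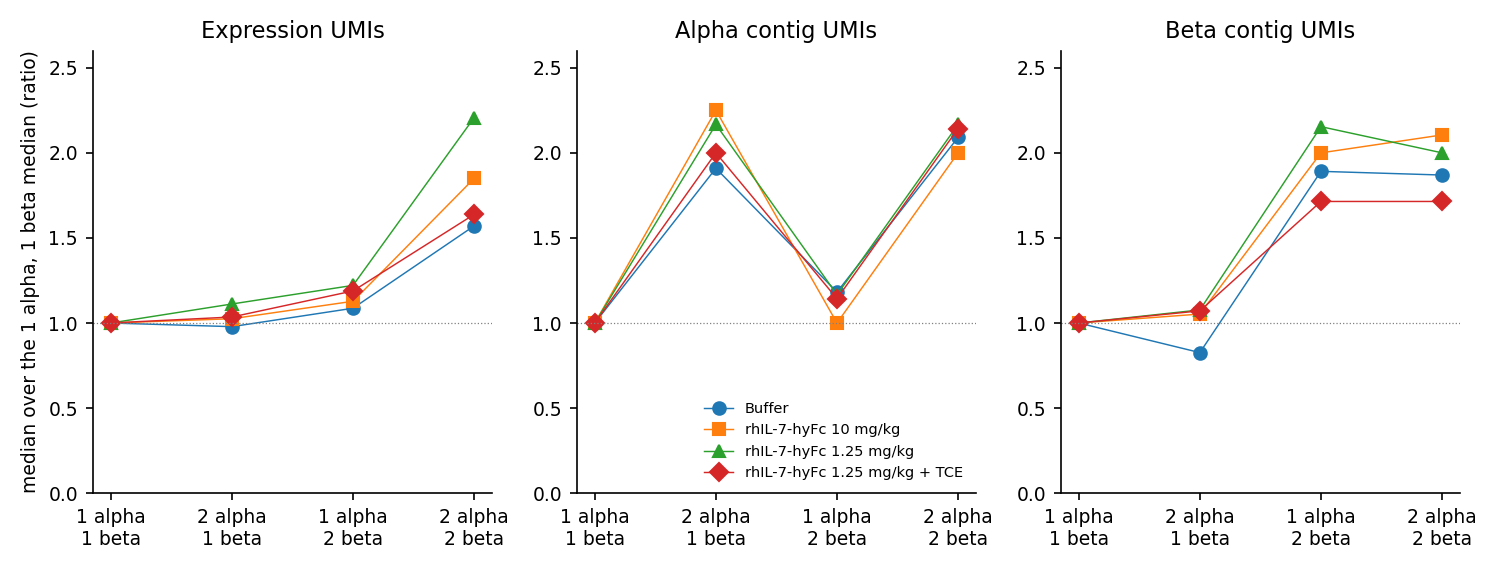
Median UMIs of expression, alpha contigs and beta contigs by number of productive chains, each divided by the library's median for 1 alpha and 1 beta (y axis, ratio). Points are libraries, and lines only join the points of a library. Dual-alpha barcodes sit at 0.979 to 1.11 for expression and 1.91 to 2.25 for alpha contigs, and barcodes with 2 of each chain at 1.57 to 2.21 for expression.

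Non-productive alpha contigs were rarer in dual-alpha cells. The experiment 1 tables also list contigs that are not productive. One such alpha contig was found in 12.1% (8.58 to 16.4) of dual-alpha barcodes of the buffer library, against 55.6% (53.5 to 57.6) of single-alpha barcodes. In the 10 mg/kg library the shares were 7.59% (5.84 to 9.66) and 48.9% (47.3 to 50.5). The rule bears on this contrast, since it requires 2 productive alpha contigs of one class and 1 of the other.

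The expression library of the same barcodes also showed RNA of the weaker chain's V gene. Among dual-alpha barcodes whose alphas used different V subgroups, the weaker chain's V gene had a UMI in 70.8%, 62.6%, 59.0% and 65.1% of barcodes. The stronger chain's V gene had one in 66.7%, 64.1%, 64.7% and 70.9%. As a background, the weaker chains' V genes had a UMI in a mean of 0.386% to 0.971% of single-alpha barcodes whose own alpha was of another V subgroup. Single-alpha cells showed their own V gene in 58.8%, 67.9%, 56.8% and 54.3%. The medians of these dual-alpha barcodes were 9404, 9773.5, 6567.5 and 6611 UMIs, against 9610, 9519, 5887 and 6301 in single-alpha barcodes. Detection of the weaker chain was over the background in every library. These barcodes were chosen for a contig of that V gene, so the detection is a description and no independent result. The part of doublets or RNA from other cells in it was not tested.

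The pairs that recurred were followed through their clones. A beta family is the set of barcodes with the same beta CDR3, V and J. In total 130 pairs were found in at least 2 barcodes, in 129 families of 1211 barcodes. These families were chosen because a pair recurred, which favours barcodes with both alphas, so their shares are a description. Of these barcodes, 76.7% showed both alphas, 14.5% only the alpha of higher total UMIs and 4.29% only the other. A further 4.29% showed a different single alpha, and 44 of these 52 came from the 1.25 mg/kg library. A different pair of alphas was seen in 0.248%. In the 56 families whose pair was in at least 5 barcodes, the same alpha was the stronger one in 498 of 669 untied barcodes, 74.4%. The alpha counted as the stronger was taken from the UMI totals of the same barcodes, which favours this share.

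Most large families had no dual-alpha barcode, and most of the rest had them in at least 50% of barcodes. Of 353 families of at least 5 barcodes, 268 held no dual-alpha barcode, 16 held only dual-alpha barcodes and 69 were mixed. None of the 67 in the buffer library was wholly dual-alpha. In all, 66 were dual-alpha in at least 50% of barcodes. Only 13 had a share above 0 and up to 20%, and 6 lay between 20% and 50%. The largest clonotypes were single-alpha. They held 152, 25, 176 and 496 barcodes, against 30, 15, 34 and 39 for the largest dual-alpha pair. No alpha pair was shared between any 2 libraries.

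**Figure D3:**
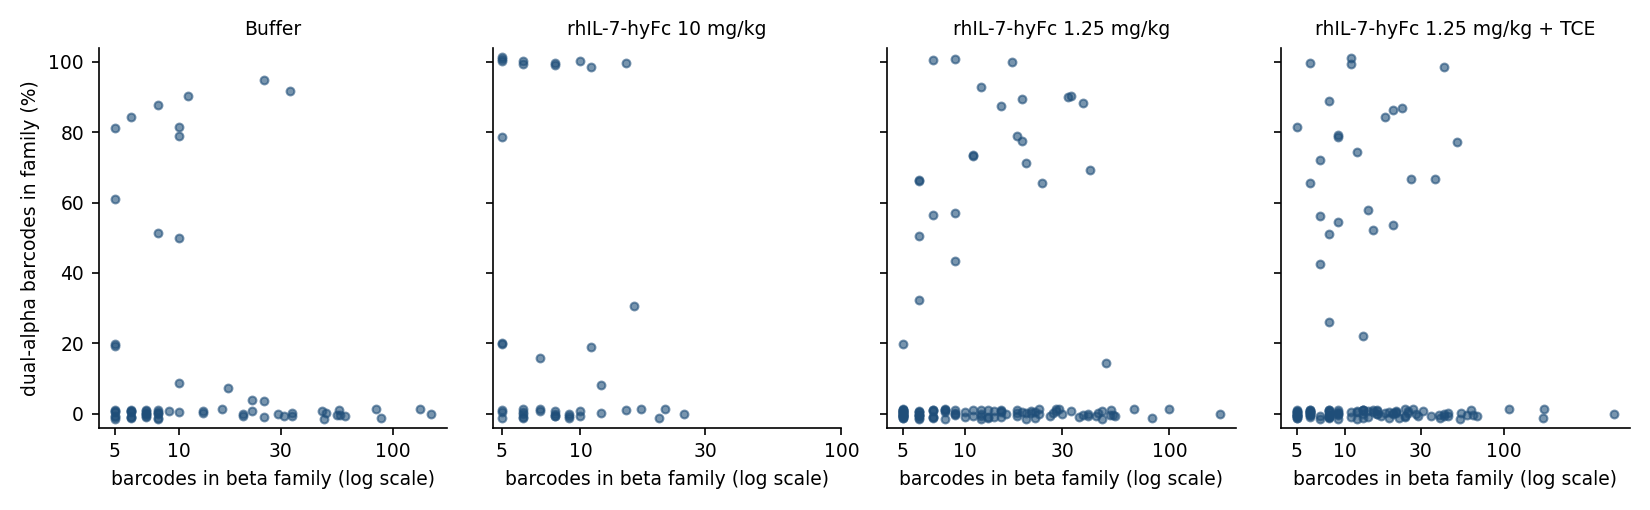
Share of dual-alpha barcodes (y axis, percent) in each beta family of at least 5 barcodes against family size (x axis, log scale), by library. Points are moved up or down by at most 1.5 so that they do not hide each other. Most of the 353 families sit at 0 or above 50%, with 6 between 20% and 50%.

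Clone size differed between the classes in opposite directions. The share of barcodes whose beta was in at least 2 barcodes was 48.1% of dual-alpha against 66.9% of single-alpha in the buffer library. It was 17.3% against 11.3% in the 10 mg/kg library. In experiment 2 it was 48.1% against 47.0% with 1.25 mg/kg and 43.9% against 52.2% with the TCE. The mean difference was -5.02 percentage points ± 10.96 (SD, n = 4 libraries, exact sign-flip permutation p = 0.5), so no common direction was detected. Without the buffer library the mean was -0.418, and without the 10 mg/kg library it was -8.71. Recurrent pairs held 45.3%, 16.2%, 44.2% and 41.9% of dual-alpha barcodes.

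Some alpha sequences were also found with other beta chains in the same library. This held for the weaker alpha in 5.88%, 10.1%, 30.3% and 15.1% of dual-alpha barcodes and for the alpha of 13.0%, 11.95%, 24.6% and 13.2% of single-alpha barcodes. The 1.25 mg/kg library was high in both classes, and it also had the most macrophage marker RNA. Without dual-alpha barcodes whose weaker alpha was found with another beta, its dual-alpha share was 9.91%. Single-alpha barcodes whose alpha was found with another beta were kept, so this share could only fall. The part of reads or RNA from other cells in these values was not tested.

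The J segments of the 2 alphas of a cell lay near each other. J segments were numbered in their order along the chromosome, from the V side. The median distance between the 2 alphas of a dual-alpha clonotype was 6, 7, 6 and 6 segments, against 14 in every library between alphas of different clonotypes. It was smaller in 4 of 4 libraries, with a mean difference of -7.75 segments ± 0.5 (SD, n = 4, exact sign-flip permutation p = 0.13). In genome distance the medians were 7.22, 7.05, 6.37 and 6.38 kb, against 14.3 to 15.3 kb. The alphas lay within 5 J segments of each other in 44.1%, 44.7%, 46.3% and 47.5% of clonotypes, against 21.0% to 21.6% between clonotypes.

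Stricter sets gave the following shares. Among the 130 recurrent pairs, 68 (52.3%, exact interval 43.4 to 61.1) lay within 5 segments. By library this was 57.1%, 39.3%, 59.5% and 51.3%, and in the 10 mg/kg library the interval, 21.5 to 59.4 over 28 pairs, reached the value between clonotypes. With different J segments required, the share was 42.2% of 1725 pairs. Both alphas used the same J in 4.47%, 5.79%, 6.38% and 7.44% of clonotypes, against 2.77% to 3.07% between clonotypes. As a description, Spearman's rho between the J positions of the 2 alphas was 0.717, 0.647, 0.6 and 0.683 over 179, 691, 486 and 484 clonotypes, which share the segment use of their library. Barcodes with 2 alphas and 2 betas, outside the rule, were within 5 segments in 27.2% (23.5 to 31.2) of 537 clonotypes, with a median distance of 12.

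**Figure D4:**
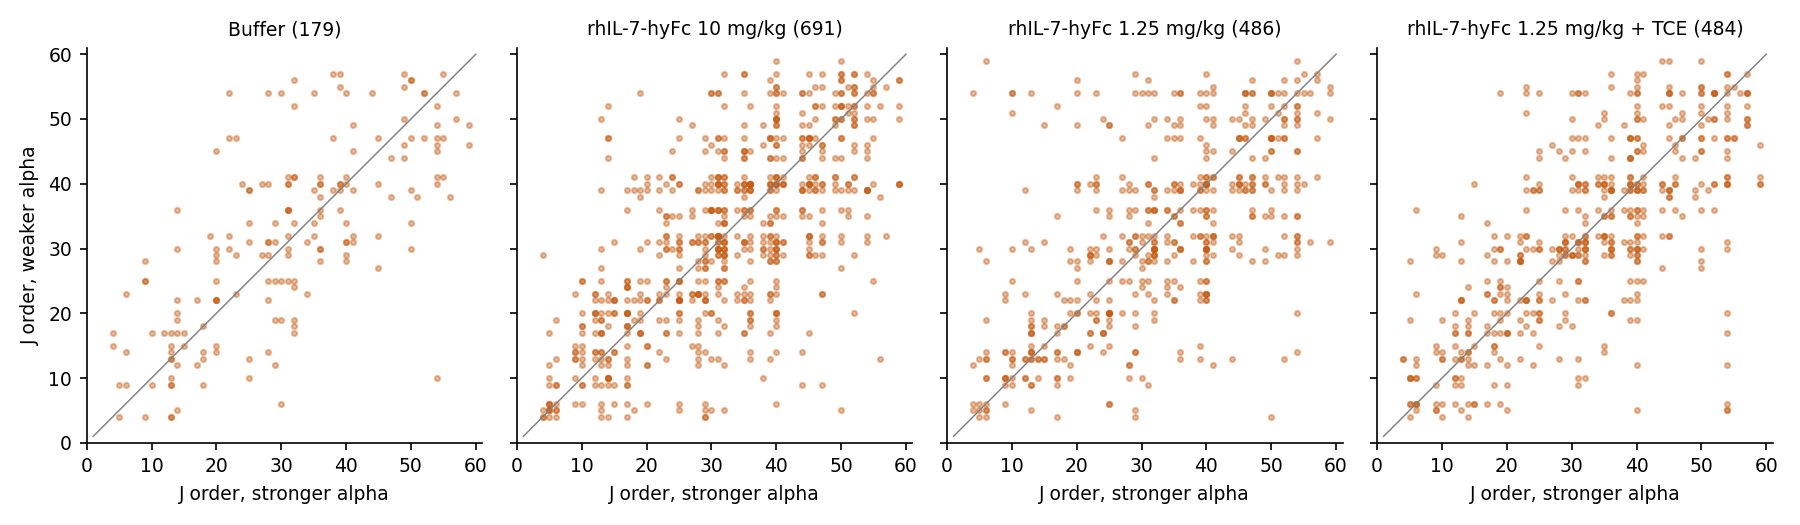
Order of the J segment of the weaker alpha (y axis) against that of the stronger alpha (x axis) for each dual-alpha clonotype, by library, numbered from the V side. The number of clonotypes is in brackets and the line marks equal J. Points gather along the line, where the median distance is 6 or 7 segments.

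V segments were nearer too, but less so. The median V distance within a cell was 272, 272, 246 and 266 kb, against 346 to 357 kb between clonotypes, and rho was 0.212 to 0.296. The classes showed no common direction in where their J segments lay. The median distance of J from Trac differed by a mean of -0.493 kb ± 1.89 (SD, n = 4 libraries, exact sign-flip permutation p = 1). Alpha CDR3s of dual-alpha clonotypes were longer by a mean of 0.148 bases ± 0.0757 (SD, n = 4, longer in 4 of 4 libraries, exact sign-flip permutation p = 0.13). As means per library, bases that match neither V nor J numbered 2.72 to 3.1 in dual-alpha chains and 2.68 to 2.72 in single-alpha chains.

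Use of alpha V segments differed between the classes in both directions. Each clonotype was counted once, but both alphas of a dual-alpha clonotype entered as separate chains, which the test took as independent. The quasi-likelihood test of edgeR with a term for library was run over 85 TRAV segments with at least 20 chains. At a Benjamini-Hochberg adjusted p under 0.05 it called 22 segments (25.9% of those tested), 15 higher (17.6%) and 7 lower (8.24%), and 26 had an unadjusted p under 0.05 (30.6%). Of the 85, 9 had under 20 single-alpha clonotypes and so passed the minimum only with the dual-alpha chains. These 9 held 6 of the 15 called higher, and the other 76 held 9 called higher and 7 lower. Without the 10 mg/kg library 1 segment was called and without the combination library 11, though the 19 and 20 of the 22 that were still tested kept their direction. The 1 was higher, as were all 7 called over barcodes in place of clonotypes, so neither alternative called a segment lower.

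The 5 largest rises among called segments were in segments that averaged 0.0516% to 0.146% of single-alpha chains. All 5 are among the 9 that passed the minimum only with the dual-alpha chains, so a segment as rare that did not rise would not have been tested. TRAV15-1-DV6-1 (chr14:53559632-53560247) made up 0.559%, 0.507%, 0.72% and 0.723% of dual-alpha chains and 0.108%, 0.0281%, 0.101% and 0.0941% of single-alpha chains. Its log2 change was 2.98 ± 0.48 (SE), and its use was higher in 4 of 4 libraries without overlap. These shares rest on few clonotypes: 23 dual-alpha chains of 1840 clonotypes and 8 of 10659 single-alpha chains. The others were TRAV15-2-DV6-2 (log2 2.83, chr14:53649404-53649994), TRAV13N-3 (2.69, chr14:53337122-53337639), TRAV11 (2.43, chr14:53519303-53519859) and TRAV4-2 (2.39, chr14:53418349-53418873), each higher in 4 of 4 libraries. TRAV15 and TRAV13 segments have near-identical copies in the duplicated V region, so which copy a contig is given to is uncertain. TRAV4, TRAV11 and TRAV16 also have D or N segments in that region. How far this bears on their counts was not tested.

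TRAV11 is the V segment of the invariant chain of NKT cells when joined to TRAJ18. It was found in 28 dual-alpha clonotypes, 9 times as the stronger and 19 times as the weaker chain. Counted together, TRAV11, TRAV11D and TRAV11N were joined to TRAJ18 in 2 dual-alpha and 5 single-alpha clonotypes. The 2 need not all be among the 28, which are TRAV11 alone. TRAV15-1-DV6-1, which can also join to delta chains, was the weaker chain in 20 of 23 clonotypes. TRAV13N-3 was the stronger in 14 of 19. TRAV21-DV12 rose less, from 0.541%, 0.449%, 0.771% and 0.533% to 1.4%, 1.45%, 1.03% and 1.24% (log2 1.15 ± 0.29, higher in 4 of 4).

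Among the 7 segments called lower were TRAV16 and TRAV19. TRAV16 (chr14:53743104-53743705) was 2.23%, 1.45%, 1.44% and 1.34% of dual-alpha chains against 2.38%, 3.85%, 2.25% and 3.23% (log2 -1.06 ± 0.17, lower in 4 of 4). In 44 of its 55 dual-alpha clonotypes it was the weaker chain. TRAV19 fell by 0.88 on the log2 scale, lower in 4 of 4. TRAV13-1, the segment with the highest share averaged over both classes, was at 3.91% against 4.41% (edgeR adjusted p = 0.218).

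Use of alpha J segments also differed in both directions, at a called share near the 25.9% of V segments. Of 43 TRAJ segments 10 were called (23.3%), 7 higher (16.3%) and 3 lower (6.98%), and 16 had an unadjusted p under 0.05 (37.2%). TRAJ42 (chr14:54175773-54175836) rose from 1.3%, 1.35%, 1.68% and 1.82% to 3.07%, 2.6%, 3.09% and 2.58% (log2 0.83 ± 0.19, higher in 4 of 4 without overlap). TRAJ31 rose by 0.59 on the log2 scale, TRAJ28 by 0.97, TRAJ17 by 0.69 and TRAJ2 by 1.16, each in 4 of 4 libraries. TRAJ49 fell by 0.57, TRAJ47 by 0.64 and TRAJ48 by 0.47, each in 4 of 4. TRAJ22, the most used, was at 6.68% against 7.3% (edgeR adjusted p = 0.552). Without the 10 mg/kg library edgeR called 0, with 10 at an unadjusted p under 0.05, and without the combination library 4. All 10 kept their direction in both. On the beta side, 0 of 22 TRBV segments were called by edgeR, and 2 had an unadjusted p under 0.05 (9.09%).

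**Figure D5:**
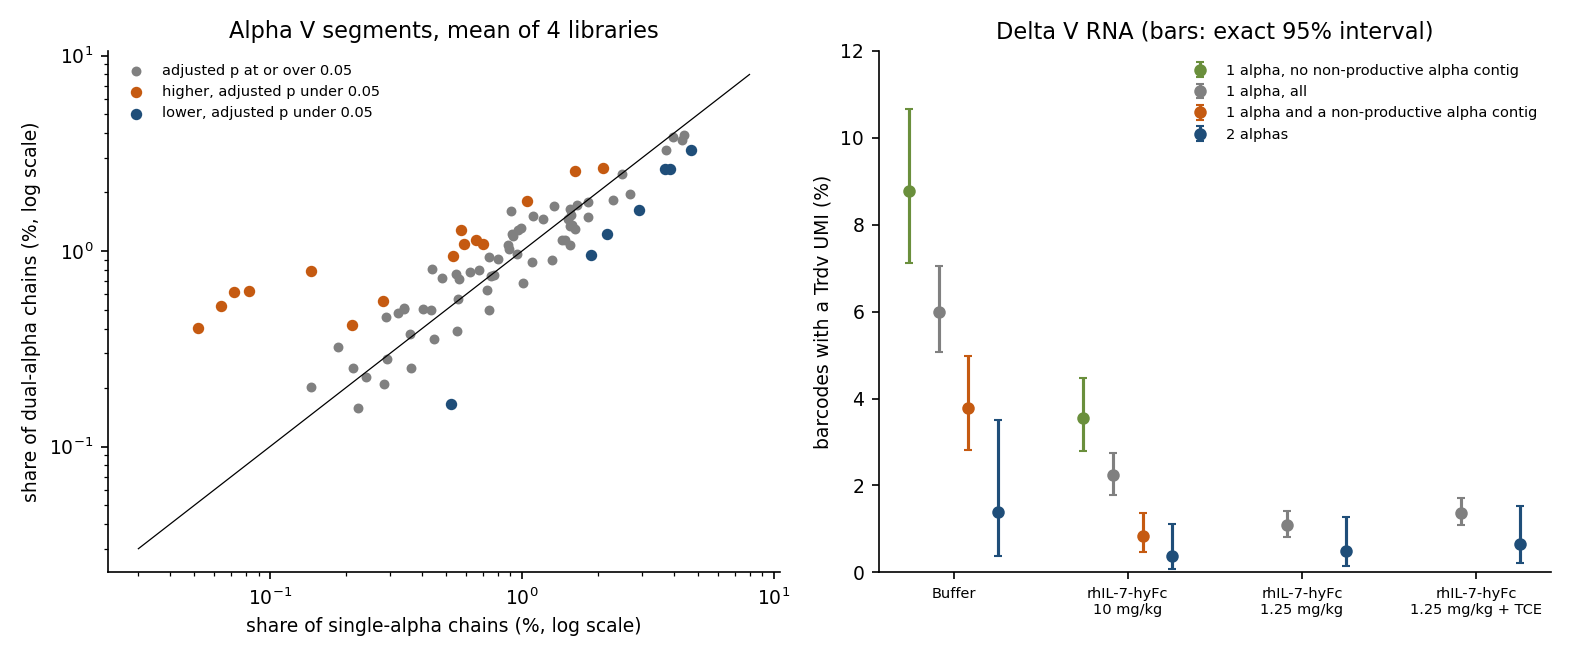
Left, mean share of each alpha V segment over 4 libraries in dual-alpha chains (y axis) against single-alpha chains (x axis), log scales, with the line of equal use. Right, share of barcodes with a Trdv UMI (y axis, percent) by library and class, with exact 95% intervals; classes by non-productive contig exist for experiment 1 only. Segments such as TRAV15-1-DV6-1 lie above the line on the left, and on the right the dual-alpha share is below the single-alpha share in each library.

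Few UMIs of the delta locus were found in dual-alpha cells. Trdc, the delta constant gene, had 2 UMIs in 2641 dual-alpha barcodes, both in the 10 mg/kg library, against 175 UMIs in 91 of 17229 single-alpha barcodes. A count of 0 allows up to 1.04% of buffer dual-alpha barcodes with a Trdc UMI, and 0.377% and 0.392% in experiment 2. This limits barcodes with a UMI, not cells that express the gene. A UMI of a delta V gene (Trdv1, Trdv2-1, Trdv2-2, Trdv4 or Trdv5, a set chosen after its values were seen) was found in 1.38%, 0.379%, 0.503% and 0.653% of dual-alpha barcodes. The single-alpha shares were 6.0%, 2.23%, 1.09% and 1.38%. The ratio was 0.17 to 0.475, lower in 4 of 4 libraries (exact sign-flip permutation p = 0.13).

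In experiment 1 the single-alpha cells split by their non-productive contig. With one, a Trdv UMI was in 3.78% (2.81 to 4.97) of buffer and 0.839% (0.481 to 1.36) of 10 mg/kg barcodes. Without one, it was in 8.78% (7.12 to 10.7) and 3.56% (2.79 to 4.47), although these cells had fewer UMIs in all, with medians of 7908 and 9032 against 10924 and 10009. The dual-alpha intervals, 0.378 to 3.51 and 0.0783 to 1.1, overlapped those of cells with a non-productive contig and not those of cells without one. The macrophage-rich barcodes described above had a Trdv UMI in 0.37%, 0.498%, 0.758% and 1.71%. In the buffer library the single-alpha interval lay above that of this background, and in the 10 mg/kg library only that of cells without a non-productive contig did. The dual-alpha intervals overlapped the background in all 4 libraries. In experiment 2 the intervals of dual-alpha, single-alpha and background barcodes overlapped, so a difference was not detectable there at this depth within a library. Gene by gene, edgeR gave adjusted p = 0.198 for Trdc, 0.221 for Trdv2-2 (log2 -2.66) and 0.38 for Trdv1, so no delta gene passed the test.

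Across the transcriptome, the genes that passed the test were alpha V genes. UMIs were summed per library and class, and edgeR's quasi-likelihood test with a term for library was run on 11618 genes. It called 5 genes (0.043%), all higher in dual-alpha cells, and 370 had an unadjusted p under 0.05 (3.18%). The 5 were Trav21-dv12 (log2 2.29), Trav13n-3 (3.06), Trav15-2-dv6-2 (2.67), Trav15-1-dv6-1 (2.61) and Trav12-1 (2.09). They are named because they were called, and they are no independent result, since the classes were defined by alpha chains. Without the buffer library 10 genes were called, without the 1.25 mg/kg library 8 and without the combination library 2. Trav13n-3 was at 6.88, 5.04, 3.13 and 5.17 CPM in dual-alpha cells against 0.526, 0.671, 0.353 and 0.753. Trav12-1 is the weaker V of the largest 1.25 mg/kg pair and reached 41.9 CPM there. Of 64 Trav genes tested 56 were above 0, with a median log2 change of 0.91. The rule itself brings such a rise, since dual-alpha barcodes hold 2 productive alphas and single-alpha barcodes 1. Rare Trav genes can also pass the filter on low counts through the dual-alpha sums alone, which favours rises. Outside the TCR loci 0 of 11517 genes were called by edgeR and 0 by DESeq2. Some alternatives did call such genes: 19 with no filter on low counts, 4 without the 1.25 mg/kg library, 3 without barcodes holding macrophage marker RNA, and 2 each without the buffer library and in the middle 50% of UMIs.

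Trac, the alpha constant gene, did not pass the test. It was at 340, 289, 277 and 308 CPM in dual-alpha cells and 312, 245, 241 and 277 in single-alpha cells, higher in 4 of 4 libraries. Its log2 change was 0.17 ± 0.03 (SE, edgeR adjusted p = 0.489), and DESeq2 called it at 0.18 (adjusted p = 0.00297). The rule bears on summed Trav RNA, which was 2.12, 1.64, 1.89 and 2.15 times the single-alpha level. Trac was at 1.09, 1.18, 1.15 and 1.11 times its single-alpha level. In experiment 1, Trac was 1.04 and 1.12 times the level of single-alpha cells with a non-productive alpha contig. It was 1.19 and 1.25 times that of cells without one.

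No gene of the rest of the receptor or its signals passed the test. Of 9 genes of the TCR and CD3 complex 0 were called, with a median log2 change of -0.05 against -0.01 over all genes tested. Cd3e, a signalling chain of the complex, was at -0.08 ± 0.04 (SE), Cd8a at -0.09 ± 0.04, Cd8b1 at -0.05 ± 0.03, Trbc1 at 0.21 ± 0.15 and Trbc2 at -0.11 ± 0.07. Of 20 proximal signalling genes 0 were called, with Lcp2, an adaptor, at -0.09 and Cblb, a ubiquitin ligase, at -0.09. Of 20 early genes of TCR signals 0 were called, with the cytokine Tnf at -0.17 and the transcription factor Irf8 at -0.14. Nr4a1, which rises with TCR signals, was at -0.01 ± 0.04, and Cd5, a surface gauge of TCR signal strength, at 0.02 ± 0.04. Of 13 genes of the rearrangement machinery 7 were tested and 0 called, with Xrcc5 at -0.18 and Xrcc6 at 0.16. Rag1 did not pass the filter on low counts.

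With all barcodes compared, most effector and exhaustion genes sat below 0 and 0 were called, though alternatives named below did call such genes. Of 20 cytotoxicity genes 0 were called, 19 were below 0 and the median log2 change was -0.10. The granzymes Gzmd and Gzme were at -0.43 ± 0.19 and -0.31 ± 0.15, and Gzmb at -0.09 ± 0.06. Of 19 exhaustion genes 0 were called and 16 were below 0, median -0.09, with the chemokines Ccl3 at -0.70 ± 0.29 and Ccl4 at -0.43 ± 0.17. Ccl4 was at 338, 262, 585 and 128 CPM against 634, 223, 640 and 252, so the 10 mg/kg library went the other way. Pdcd1, the gene of PD-1, was at 512, 193, 425 and 523 CPM against 547, 122, 441 and 583 (log2 0.07 ± 0.11). Gzmg, a granzyme named after its values were seen, was at -1.76 (edgeR adjusted p = 0.533), lower in 4 of 4 libraries. It was called without barcodes holding macrophage marker RNA, and was at 0.15 in the middle 50% of UMIs, where Ccl4 was called lower.

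These signs differed with the set of barcodes compared. Restricted to betas found in 1 barcode, 14 of 20 cytotoxicity genes were above 0 with a median of 0.05, and 12 of 18 exhaustion genes with a median of 0.04. Restricted to families of at least 2 barcodes, 18 of 20 cytotoxicity genes were below 0 with a median of -0.18. That set held dual-alpha barcodes whose pair recurred and single-alpha barcodes of families with no dual-alpha barcode. The classes there come from separate families, so more than clone size differs from the main comparison. In each restriction 0 of these genes were called. Without the buffer library, where single-alpha barcodes lay more in large clones, the cytotoxicity median was -0.07 and the exhaustion median -0.03. Without the 10 mg/kg library they were -0.17 and -0.22.

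No other list held a called gene. Of 21 naive and memory genes 14 were above 0, median 0.04, with Dapl1 at 0.23, Bach2 at 0.14 and Tcf7 at 0.08 ± 0.10. The list's median was -0.03 without the buffer library, with 7 of 21 above 0. It was -0.04 with betas in 1 barcode and -0.08 in families of at least 2 barcodes. Of 18 IL-7 and STAT5 genes the median was -0.01, with Bcl6 at 0.28, Ptger2 at -0.22 and Il7r, the IL-7 receptor alpha chain, at -0.01 ± 0.04. Of 20 DNA replication genes 14 were above 0, median 0.04, with Chaf1b at 0.19. Of 20 mitosis genes the median was -0.03, with Ccnb1 at -0.10, Nusap1 at 0.08 and Mki67, a marker of cycling cells, at 0.08 ± 0.06. That median was 0.31 in the middle 50% of UMIs, with 18 of 20 above 0, and 0.07 both with betas in 1 barcode and without the 5% of cells with most UMIs. Of 19 interferon genes the median was 0.04 (-0.04 in families of at least 2 barcodes), with Ifi44 at 0.32 and Ifih1 at 0.11. Of 20 ribosomal protein genes the median was 0.02 (-0.01 without the buffer library or with betas in 1 barcode), with Rps2 at 0.05 and Rps6 at 0.04, and of 14 heat shock and AP-1 genes the median was -0.02, with Hspa1a at -0.15 and Atf3 at 0.13. Counts for this comparison were also simulated, with 200 genes changed among 11654 and 11653 tested. In them, 98% of changes of 2-fold and 54.5% of changes of 1.3-fold were recovered. These shares hold for the spread used there, a dispersion of 0.0039. Only genes above a minimum mean count in the dual-alpha sums were changed in the simulation. Recovery for genes of lower counts, or for genes that vary more between libraries, was not tested. Among measured changes above 2-fold, only the 5 Trav genes named above were called. Those not called included Gzmg (log2 -1.76), Trdc (-3.90), Trdv1 (-2.81) and Trdv2-2 (-2.66). The largest rise over all genes tested, log2 3.83, was not called either.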

How the data were processed

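The deposited expression files hold whole-number UMI counts for each gene and barcode. Per the file headers, experiment 1 was processed with Cell Ranger 4.0.0 and experiment 2 with 6.1.2. The genome build, per the submitters' processing notes, was GRCm38. The authors' TCR tables list each assembled contig with its UMI and read counts. No header or label gives their Cell Ranger version, and the experiment 2 tables hold productive contigs only, so shares were not compared across experiments. Both library kinds came from the 10x 5′ v2 chemistry, per the labels' protocols.

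The gene and mitochondrial limits given above left 4697 to 12307 cells per library. Median depth was 6625 to 9696 UMIs. The 30406 genes in both references were used. The requirement of 1 beta leaves out barcodes with 2 betas, and no doublet caller was run. A beta family is a beta CDR3, V and J; a clonotype adds its alphas. UMI counts were summed per library and class and tested with edgeR 4.0.16 (TMM, filterByExpr, library block, quasi-likelihood, R 4.3.3). Segment use was tested alike without TMM, on the chains of clonotypes counted once, for segments with at least 20 chains. DESeq2 1.42.0 was an alternative. P-values were Benjamini-Hochberg adjusted over each whole table. Other contrasts over libraries used the exact sign-flip permutation test. The scripts were tested on simulated data. Gene positions and germline ends come from the GENCODE M21 annotation of GRCm38.

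Named genes were up to 10 called per direction outside the TCR loci, the 2 tested members of each list with the largest change, and 15 fixed genes, of which a few are not reported here; named segments were up to 8 called per table with the lowest p, and the segment with the highest share averaged over both classes. The called Trav genes, Gzmg and the delta genes were added after their values were seen. Members, lists and rules were chosen with earlier results of these data known. The labels name no separate animals within a library.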

Additional observations from a re-analysis of the deposited data

Results flagged for a closer look

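In experiment 1 the classes differed in opposite directions in the buffer and 10 mg/kg libraries, and the difference between these libraries was not tested, since each is 1 library. The share of barcodes whose beta was in at least 2 barcodes differed by -18.8 percentage points, dual-alpha minus single-alpha, in the buffer library and by 6.06 in the 10 mg/kg library. For betas in at least 5 barcodes the differences were -19.6 and 4.34 points. The ratio of median UMIs was 0.979 and 1.03, and the ratio of median beta contig UMIs 0.826 and 1.05. In experiment 2 the share with a beta in at least 2 barcodes differed by 1.01 points with 1.25 mg/kg alone and by -8.33 with the TCE, which was not tested either.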

How the results depend on the processing

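Counting each clonotype once moved the dual-alpha share to 16.2% in the buffer library and 13.2% in the combination library. Without dual-alpha barcodes whose weaker alpha was found with another beta it was 15.4% in the 10 mg/kg, 9.91% in the 1.25 mg/kg and 9.83% in the combination library. Only dual-alpha barcodes were taken out there, so the share could only fall. The other share alternatives stayed within the interval of the reported value.

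The count of 5 called genes became 47 with no filter on low counts, 12 in the middle 50% of UMIs, 12 without macrophage marker RNA, 3 with at least 3 UMIs per alpha, and 0 in families of at least 2 barcodes (356 at an unadjusted p under 0.05), a set chosen after seeing the data in which 1 of the 5 was tested. With no replicate block, that is without the library term, edgeR called 0, with 37 at an unadjusted p under 0.05. Leaving out 1 library gave 2 to 10 genes. Called TRAV segments became 7 over barcodes and 1 to 22 without 1 library, and TRAJ segments 6 and 0 to 9. No paired analysis by replicate number was possible because the labels give no such numbers; the library term pairs the classes. The mean depth, clone size, J distance and delta V differences kept their sign under the alternatives run; their test cannot pass 0.05 with 4 libraries, so its p says nothing of stability.

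Of 699 values of named genes and segments under alternatives, 605 kept direction and call, 41 lost and 13 gained a call, and 40 reversed, none of them called. On the log2 scale, those with betas in 1 barcode were Ccl4 0.013, Cd8a 0.0076, Ccl3 0.65, Gzmd 0.51, Cblb 0.013, Gzme 0.12, Hspa1a 0.78, Ccnb1 0.033, Rps2 -0.0064, Trbc1 -0.077, Cd8b1 0.016, Ptger2 0.056, Gzmb 0.045, Rps6 -0.0065, Tcf7 -0.069 and Cd5 -0.033. In families of at least 2 barcodes they were Mki67 -0.11, Ifih1 -0.098, Atf3 -0.067 and Tcf7 -0.37. In the middle 50% of UMIs they were Gzmg 0.15, Hspa1a 0.12, Ccnb1 0.61 and Il7r 0.027. Without macrophage marker RNA they were Atf3 -0.024 and Nr4a1 0.014, and without the 5% of cells with most UMIs Ccnb1 0.046 and Nr4a1 0.013. With no filter on low counts Cd5 -0.021 reversed, with no replicate block Pdcd1 -0.027, and over barcodes TRAJ22 0.25. Leaving out 1 library in turn gave ranges that crossed 0 for Dapl1 -0.0038 to 0.42, Trbc1 -0.024 to 0.36, Ifih1 -0.0035 to 0.23, Rps6 -0.0015 to 0.085, Tcf7 -0.032 to 0.18, Pdcd1 -0.095 to 0.16, Nr4a1 -0.053 to 0.018 and Il7r -0.034 to 0.029. The cause of these changes was not tested.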
